A study of Mus musculus with 6 samples.

Results

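The 10 genes described here, of 18193 genes measured, control the fusion, division and biogenesis of mitochondria, and were chosen by name: Mfn1, Mfn2, Opa1, Dnm1l, Fis1, Ppargc1a, Ppargc1b, Tfam, Nrf1 and Esrra. The platform annotation assigned 28 of the 45037 probe sets tested to 1 of these genes alone. A probe set is a group of short array probes that report 1 transcript, and each gene had between 1 and 5 of them. The gene is represented below by its brightest probe set, the one with the highest mean over all arrays, taken among those whose identifier lacks the suffix _x_at, which marks possible cross-hybridization. Of the 28 probe sets, 10 lay below the median level of all probe sets, among them the brightest of 1 gene, Ppargc1a.

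Affymetrix mouse M430 2.0 arrays were hybridised with RNA of immortalized fibroblasts from mouse embryos of mixed background strain, all of which lack Kdm5a, the gene of a histone H3 lysine 4 demethylase. The cells carried KDM5A-H483A (2 arrays), in which a catalytic histidine is replaced by alanine, wild-type KDM5A (2 arrays), or an empty vector (2 arrays). The empty vector cells are therefore Kdm5a-null cells, and every group shares the deletion. Each group's arrays are labelled as biological replicates, but the labels do not describe separate cultures or clones, so p-values measure only the spread between these samples.

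Mitochondria form a network that is remodelled by fusion and division. Mitofusins MFN1 and MFN2 join outer membranes, OPA1 joins inner membranes and shapes cristae, and the dynamin-like GTPase DRP1, made by Dnm1l, constricts the organelle at sites where FIS1 is among the outer membrane proteins. Biogenesis is driven from the nucleus: the coactivators PGC-1α (Ppargc1a) and PGC-1β (Ppargc1b) act through factors such as NRF1 and the estrogen-related receptor ERRα (Esrra). TFAM, made from a target gene of such factors, packages mitochondrial DNA and helps to start its transcription. Mfn2 is a reported KDM5A-bound gene.

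The promoters of 4 of the genes show the sequence setting of the values below. Mfn2 is shown as the reported bound gene, Fis1 and Tfam as the genes with the largest ranges over the arrays, and Opa1 as the only first-listed promoter among them with an NRF1 motif. Each line gives the 250 bases before the transcript start that comes first in the RefSeq list for the gene (GRCm38.p6), read 5′ to 3′ on the gene's strand. That start need not be the outermost: the Tfam window lies within the gene's annotated span, and the Opa1 window runs partly into it. Both strands were searched, and capitals mark matches to CCGCCC, a sequence bound by the ARID domain of human KDM5A, to CCGGAAG (ETS factors such as GABP) or to the palindromic NRF1 motif. A match on the other strand is read as its reverse complement, such as GGGCGG for CCGCCC. The regions are chr4:147904910-147905159 on the minus strand, chr5:136953025-136953274 on the plus strand, chr10:71238045-71238294 on the minus strand and chr16:29579084-29579333 on the plus strand.
Mfn2: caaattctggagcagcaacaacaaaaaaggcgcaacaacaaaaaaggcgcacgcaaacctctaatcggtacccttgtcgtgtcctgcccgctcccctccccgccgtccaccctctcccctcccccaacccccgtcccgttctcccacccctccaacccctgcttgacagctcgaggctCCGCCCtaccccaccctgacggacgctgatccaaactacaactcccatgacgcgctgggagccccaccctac
Fis1: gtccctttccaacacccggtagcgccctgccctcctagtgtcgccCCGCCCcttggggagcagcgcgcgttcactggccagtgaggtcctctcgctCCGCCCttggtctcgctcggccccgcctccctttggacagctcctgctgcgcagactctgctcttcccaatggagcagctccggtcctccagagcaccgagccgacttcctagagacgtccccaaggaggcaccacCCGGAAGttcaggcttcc
Tfam: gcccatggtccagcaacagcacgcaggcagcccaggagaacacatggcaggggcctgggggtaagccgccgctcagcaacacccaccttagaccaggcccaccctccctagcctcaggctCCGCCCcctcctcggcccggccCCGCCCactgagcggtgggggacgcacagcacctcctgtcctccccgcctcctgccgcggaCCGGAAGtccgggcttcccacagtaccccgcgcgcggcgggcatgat
Opa1: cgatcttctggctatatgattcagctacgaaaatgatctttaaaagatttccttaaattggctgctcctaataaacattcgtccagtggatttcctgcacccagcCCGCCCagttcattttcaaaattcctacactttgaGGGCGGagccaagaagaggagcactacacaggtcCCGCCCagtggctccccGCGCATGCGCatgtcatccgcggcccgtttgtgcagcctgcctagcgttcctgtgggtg

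Counting the first-listed promoter of each gene, CCGCCC was present in 8 of 9, Ppargc1a being the exception, and in 32.9% of 27025 mouse promoters of the same length. CCGGAAG was present in 3, those of Mfn1, Fis1 and Tfam, against 7.05% of all promoters. The NRF1 motif was present in 1, that of Opa1, against 3.86% of all promoters. Neither AAGGTCA, the ERR motif, nor the E-box CACGTG was found in these windows, against 4.05% and 6.05% of all promoters. All promoters were not matched to these genes for base composition or expression, so enrichment of a motif, CCGCCC included, was not tested. Later-listed windows were not in these counts. For Mfn2 and Nrf1 they held no match to CCGCCC or the other motifs, and for Dnm1l and Fis1 they held CCGCCC. The first-listed windows of Dnm1l, Ppargc1a and Tfam lie within the annotated gene, and those of Mfn1, Opa1, Nrf1 and Esrra run partly into it. Such windows are not all sequence upstream of the gene. A match describes the letters of the window and is not a binding site, and a missing match says only that these letters are not in the window.

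The cells carried fibroblast markers: by their mean over the arrays, all 13 listed markers lay above the median probe set, with the vimentin and collagen genes Vim, Col1a1 and Col1a2 between the 99.6th and 100th percentile. On the second KDM5A-H483A array and the second wild-type KDM5A array, 12 of 13 lay above that array's own median, and on the other 4 arrays all 13 did. The median level of these markers was 9.29 and 8.04 on the KDM5A-H483A arrays, 9.65 and 8.43 on the wild-type KDM5A arrays, and 9.16 and 8.42 on the empty vector arrays, in log2 units with the first array first. Marker by marker, the median difference of the second from the first array was -0.94 in KDM5A-H483A cells, -0.85 in wild-type KDM5A cells and -0.19 in empty vector cells. The second array was lower for 11, 13 and 11 of the 13 markers, and Postn, the periostin gene, differed by -3.00, -3.57 and -0.74. Of the markers of other cells, 2 of 7 epithelial, 1 of 5 endothelial, 2 of 5 blood, 4 of 5 muscle, 1 of 4 adipocyte and 3 of 4 neural genes lay above the median probe set. The leukocyte gene Ptprc and the epithelial gene Cdh1 were the lowest of their lists, at the 11.4th and 6.5th percentile. The highest of the same lists were Csf1r at the 73.5th and Krt5 at the 71.6th percentile. The median percentile was 75.1 for neural and 61.9 for muscle markers, 21.6 to 47.7 for the other lists, and 92.6 for fibroblast markers. The neural gene Map2, at the 88.3rd percentile, lay above some fibroblast markers, such as Lum at the 57.5th. The 6 Kdm5a probe sets lay between 3.01 and 6.14 on all arrays, with 0 differences at an unadjusted p under 0.05, and since the labels do not place the deletion relative to the probes, they check neither the deletion nor the reintroduction. The Pearson r across genes of the second KDM5A-H483A array with the others was 0.9777 to 0.9874, against 0.9856 to 0.9953 among the other 5, so it was the least like the rest. Values without it are given below for the genes that moved most with it. RNA came from whole cultures, so fewer cells of a type and less RNA per cell cannot be told apart.

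Among the fusion genes, Mfn2 had log2 values of 7.15 and 7.62 in KDM5A-H483A cells, 7.12 and 7.32 in wild-type KDM5A cells, and 7.25 and 7.04 in empty vector cells. The second KDM5A-H483A array was the highest, and the arrays of all groups overlapped. Its limma log2 fold change was 0.24 for KDM5A-H483A against empty vector (SE 0.19, 95% CI -0.21 to 0.68, limma adjusted p = 1) and 0.07 for wild-type KDM5A against empty vector (SE 0.19, 95% CI -0.37 to 0.52, limma adjusted p = 1). Without the second KDM5A-H483A array, the KDM5A-H483A difference from empty vector was 0.00. The dimmer Mfn2 probe set, 1451900_at, ran otherwise: it stood at 4.29 and 3.78 in KDM5A-H483A cells, 4.35 and 4.30 in wild-type KDM5A cells, and 4.09 and 3.87 in empty vector cells. Here the second KDM5A-H483A array was the lowest, and both wild-type KDM5A arrays lay above both empty vector arrays (log2 fold change 0.35, 95% CI -0.10 to 0.80). This probe set lay at the 41st percentile of all probe sets. The deposited values carry no detection call.

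Mfn1, the second mitofusin gene, stood at 6.92 and 7.04 in KDM5A-H483A cells, 6.89 and 6.69 in wild-type KDM5A cells, and 6.96 and 6.86 with empty vector in its brightest probe set. Both KDM5A-H483A arrays lay above both wild-type KDM5A arrays, and the empty vector arrays lay between the extremes. The difference of KDM5A-H483A from wild-type KDM5A was 0.19 (95% CI -0.12 to 0.49, limma adjusted p = 0.927). The other 2 Mfn1 probe sets differed in opposite directions in the same comparison, by -0.49 (95% CI -1.02 to 0.04) for 1419997_at and 0.47 (95% CI -0.09 to 1.04) for 1426773_at, so the array gives no single direction for Mfn1.

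Opa1 stood at 8.36 and 8.16 in KDM5A-H483A cells, 8.39 and 8.50 in wild-type KDM5A cells, and 8.32 and 8.45 in empty vector cells. Both KDM5A-H483A arrays were below both wild-type KDM5A arrays, by 0.19 on average (log2 fold change -0.19, 95% CI -0.49 to 0.12, limma adjusted p = 0.927). The range of 0.34 over all 6 arrays was small beside that of 1449214_a_at, the dimmest Opa1 probe set, which stood at 3.94 and 5.10 in KDM5A-H483A cells, 4.17 and 4.28 in wild-type KDM5A cells, and 4.21 and 4.13 in empty vector cells. In that probe set a single array, the second in KDM5A-H483A cells, was high, while the other 5 lay within 3.94 to 4.28.

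Of the fission genes, Dnm1l had the smallest range of all 10 brightest probe sets along with Ppargc1a, at 0.26. Dnm1l stood at 8.39 and 8.45 in KDM5A-H483A cells, 8.51 and 8.65 in wild-type KDM5A cells, and 8.52 and 8.52 in empty vector cells. Both KDM5A-H483A arrays were below all 4 others. The log2 fold change was -0.10 against empty vector (95% CI -0.38 to 0.17, limma adjusted p = 1) and -0.16 against wild-type KDM5A (95% CI -0.44 to 0.11, limma adjusted p = 0.927). The second bright Dnm1l probe set, 1428087_at, gave -0.11 (95% CI -0.46 to 0.24) and -0.21 (95% CI -0.56 to 0.15) in the same comparisons, with overlapping arrays. The dim probe set 1452638_s_at, at the 15th percentile, gave 0.12 and -0.04. Its KDM5A-H483A arrays both lay above both empty vector arrays. The dimmest, 1428008_at, at the 0.5th percentile, gave -0.05 and -0.20.

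Fis1 had the largest difference from empty vector among the brightest probe sets. It stood at 6.47 and 7.13 in KDM5A-H483A cells, 6.43 and 6.24 in wild-type KDM5A cells, and 6.37 and 6.29 in empty vector cells. Both KDM5A-H483A arrays were the highest of the 6, the first by little and the second by much. With KDM5A-H483A, Fis1 was 1.39-fold higher than with empty vector (log2 fold change 0.48, SE 0.22, unadjusted p = 0.0707, 95% CI -0.05 to 1.00, limma adjusted p = 1) and 1.38-fold higher than with wild-type KDM5A (log2 fold change 0.47, 95% CI -0.06 to 0.99, limma adjusted p = 0.927). Without the second KDM5A-H483A array these log2 fold changes were 0.14 and 0.13. The possibly cross-hybridizing probe set 1443819_x_at stood at 6.87 and 7.19 in KDM5A-H483A cells, 6.76 and 6.65 in wild-type KDM5A cells, and 6.88 and 6.78 in empty vector cells, and again only the second KDM5A-H483A array stood clear of the rest.

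**Figure D1:**
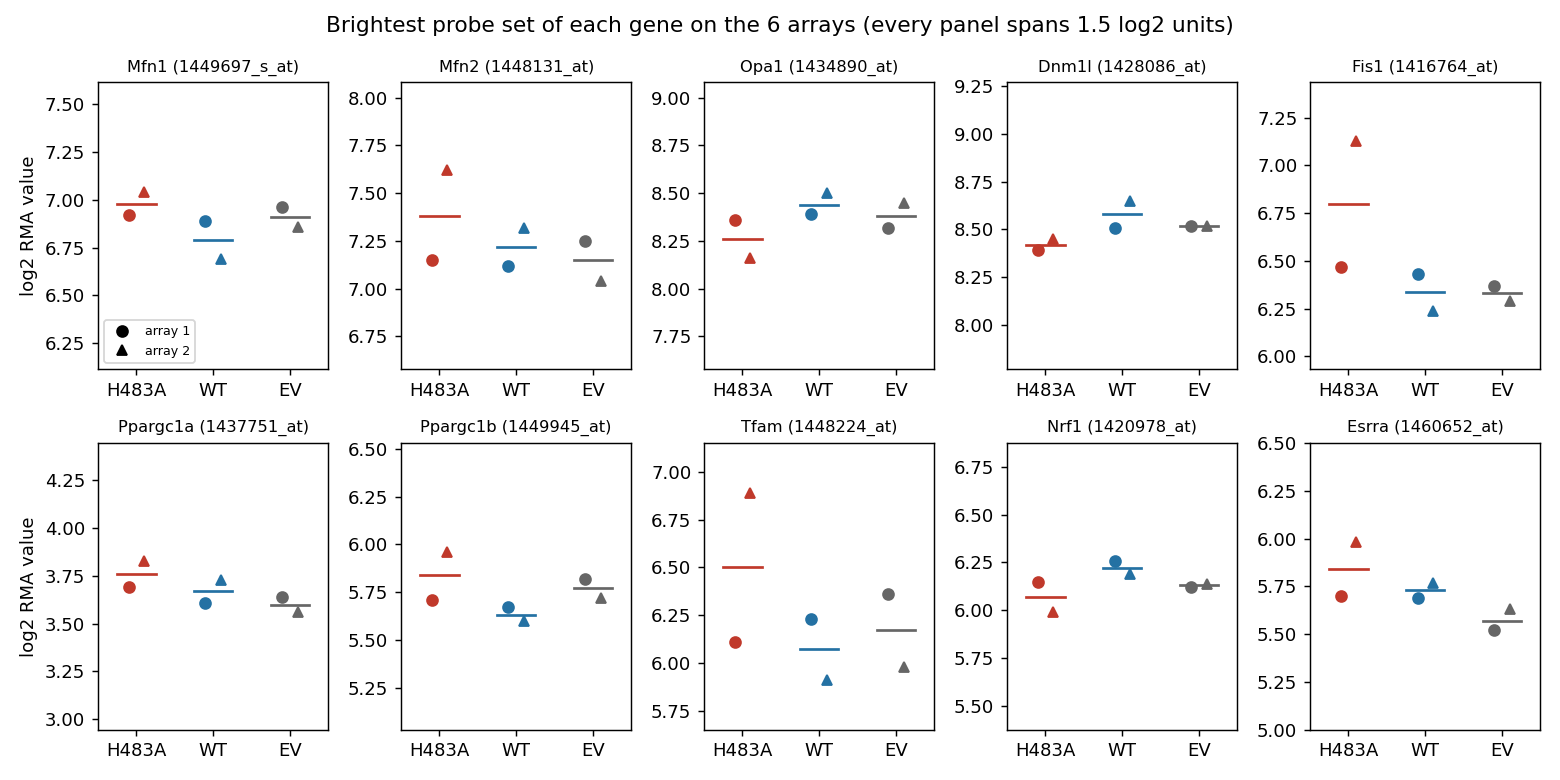
Log2 RMA values (vertical axis, 1.5 units in every panel) of the brightest probe set of each gene in cells with KDM5A-H483A (H483A), wild-type KDM5A (WT) and empty vector (EV). Circles are the first and triangles the second array of a group, and bars are group means. The second KDM5A-H483A array is the highest point in 7 of 10 panels.

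The coactivator gene Ppargc1a gave only weak signals in these fibroblasts. Its brightest probe set lay at the 30.4th percentile of all probe sets and the other 4 at or below the 11.5th. That probe set stood at 3.69 and 3.83 in KDM5A-H483A cells, 3.61 and 3.73 in wild-type KDM5A cells, and 3.64 and 3.56 in empty vector cells. Both KDM5A-H483A arrays were above both empty vector arrays, by 0.15 (95% CI -0.13 to 0.44, limma adjusted p = 1), as they were in 1456395_at, by 0.16. In 1434099_at and 1434100_x_at both lay below (log2 fold changes -0.18 and -0.13), and in 1460336_at the arrays overlapped (-0.07).

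Its paralogue Ppargc1b had 1 probe set, at the 67.6th percentile. It stood at 5.71 and 5.96 in KDM5A-H483A cells, 5.67 and 5.60 in wild-type KDM5A cells, and 5.82 and 5.72 in empty vector cells. Both wild-type KDM5A arrays were below all 4 others. The log2 fold change of wild-type KDM5A against empty vector was -0.14 (95% CI -0.46 to 0.17, limma adjusted p = 1) and that of KDM5A-H483A against wild-type KDM5A was 0.21 (95% CI -0.11 to 0.52, limma adjusted p = 0.927). The KDM5A-H483A value against wild-type KDM5A was 0.08 when the second KDM5A-H483A array was left out, or 0.33 when the first was.

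Esrra, the gene of ERRα, stood at 5.70 and 5.98 in KDM5A-H483A cells, 5.69 and 5.77 in wild-type KDM5A cells, and 5.52 and 5.63 in empty vector cells. It was the only gene of the 10 whose brightest probe set lay above both empty vector arrays in all 4 arrays with either KDM5A form. Its log2 fold change against empty vector was 0.27 for KDM5A-H483A (SE 0.14, unadjusted p = 0.0918, 95% CI -0.06 to 0.60, limma adjusted p = 1) and 0.16 for wild-type KDM5A (SE 0.14, unadjusted p = 0.28, 95% CI -0.17 to 0.49, limma adjusted p = 1). Without the second KDM5A-H483A array the KDM5A-H483A value was 0.13 (unadjusted p = 0.407 by limma). Both comparisons use the same empty vector arrays, so they are not independent. The share of all genes with all 4 of these arrays above both empty vector arrays was not counted. Dimmer probe sets of Dnm1l (1452638_s_at) and Ppargc1a (1456395_at) had that pattern too. The second Esrra probe set, at the 26.3rd percentile, gave 0.08 and -0.07.

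Nrf1, whose product activates nuclear genes of the respiratory chain, stood at 6.15 and 5.99 in KDM5A-H483A cells, 6.26 and 6.19 in wild-type KDM5A cells, and 6.12 and 6.14 in empty vector cells. Both wild-type KDM5A arrays were the highest, by 0.09 over empty vector (95% CI -0.19 to 0.37, limma adjusted p = 1), and KDM5A-H483A was below wild-type KDM5A (log2 fold change -0.15, 95% CI -0.43 to 0.13, limma adjusted p = 0.927). The next bright probe set, 1434627_at, gave -0.05 and 0.09 in the same comparisons, with the signs turned.

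Tfam had the largest range over the 6 arrays, 0.97. It stood at 6.11 and 6.89 in KDM5A-H483A cells, 6.23 and 5.91 in wild-type KDM5A cells, and 6.36 and 5.98 in empty vector cells. The second KDM5A-H483A array was the highest of all and the first was below the first array of each other group. The log2 fold change for KDM5A-H483A was 0.33 against empty vector (SE 0.28, 95% CI -0.34 to 0.99, limma adjusted p = 1) and 0.43 against wild-type KDM5A (SE 0.28, 95% CI -0.24 to 1.09, limma adjusted p = 0.927). Without the second KDM5A-H483A array these values were -0.06 and 0.04. The dimmer probe set 1456215_at stood at 4.61 and 4.93 in KDM5A-H483A cells, 4.61 and 4.99 in wild-type KDM5A cells, and 4.57 and 4.71 in empty vector cells, so that the second array was the higher in every group.

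Limma with Benjamini-Hochberg adjustment called 0 of 45037 probe sets (0%) in each comparison, the 28 member probe sets included, and 0 of these 28 reached an unadjusted p under 0.05 in any comparison. Of all probe sets, 2.01% reached it between KDM5A-H483A and empty vector, 3.02% between wild-type KDM5A and empty vector, and 4.31% between KDM5A-H483A and wild-type KDM5A. All 10 brightest probe sets had 95% confidence intervals that include 0 in all 3 comparisons. The median gene's interval reached 0.36 on each side.

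Arrays of the groups did not overlap for 1 to 3 of the 10 genes in each direction, a number too small to set closely against the share of all genes. With KDM5A-H483A against empty vector, 3 of 10 genes had both arrays higher (Fis1, Ppargc1a and Esrra), against 13.6% of all genes, and 1 had both lower (Dnm1l), against 14.6%. Between wild-type KDM5A and empty vector, 2 were higher (Nrf1 and Esrra), against 16.5% of all genes, and 1 was lower (Ppargc1b), against 15.4%. Setting KDM5A-H483A against wild-type KDM5A, 3 were higher (Mfn1, Fis1 and Ppargc1b), against 14.9%, and 3 were lower (Opa1, Dnm1l and Nrf1), against 16.1%. The median log2 fold change of the 10 genes was 0.11, 0.06 and 0.14 in these comparisons, beside 0.00, 0.00 and -0.01 for all genes. Over all 28 member probe sets the medians were 0.06, 0.03 and 0.00. Of the 18 probe sets that are not the brightest, 11, 7 and 9 had the sign of their gene's brightest.

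**Figure D2:**
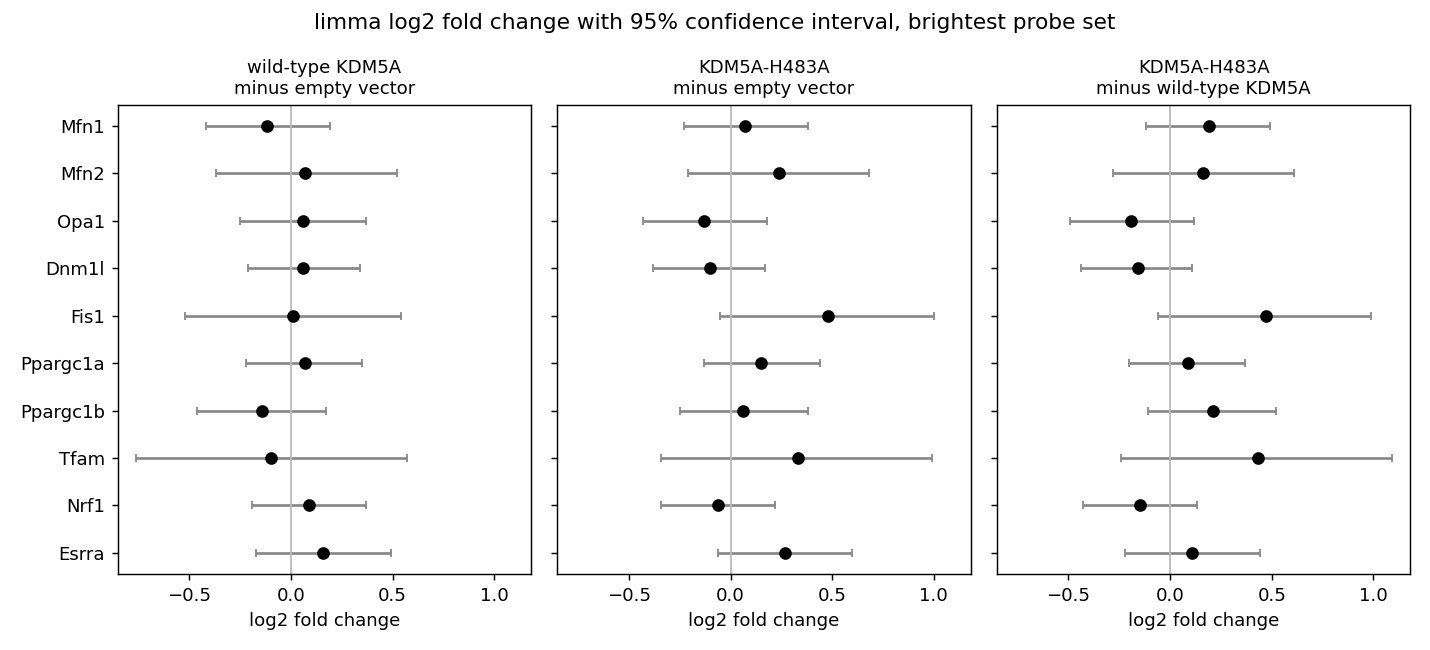
Limma log2 fold changes (points) with 95% confidence intervals (bars) of the brightest probe set of each gene, in a panel for each comparison. Every interval includes 0, and the widest reach is that of Tfam, to 1.09 for KDM5A-H483A against wild-type KDM5A.

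The group means fell into 3 orders. Mfn2, Fis1, Ppargc1a and Esrra had the highest mean in KDM5A-H483A cells, then wild-type KDM5A, then empty vector. Mfn1, Ppargc1b and Tfam were also highest in KDM5A-H483A cells, with wild-type KDM5A lowest. Opa1, Dnm1l and Nrf1 were highest with wild-type KDM5A and lowest in KDM5A-H483A cells. No pair of means passed limma's threshold in any of the 10 genes, so these orders are descriptions.

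The higher means with KDM5A-H483A went with 1 high array, which was noticed after the values were seen. The second KDM5A-H483A array held the highest value of the 6 arrays for 7 of 10 genes, against 23.1% of all genes, and the lowest for 2, against 23.1% of all genes. Over all 28 member probe sets, it was the highest for 11 and the lowest for 5. The second array exceeded the first by 0.78 for Tfam, 0.67 for Fis1, 0.47 for Mfn2, 0.27 for Esrra and 0.25 for Ppargc1b in KDM5A-H483A cells. With wild-type KDM5A the same differences were -0.32, -0.18, 0.19, 0.08 and -0.07, and with empty vector -0.39, -0.08, -0.21, 0.11 and -0.10. Only Mfn2 and Esrra among these 5 were higher in the second array of both KDM5A groups. Fibroblast markers were also lower on the second array, by more in both KDM5A groups than in empty vector cells, as given above, and their part in these values was not tested.

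Without the second KDM5A-H483A array, the median of the 10 genes was 0.01 against empty vector and -0.01 against wild-type KDM5A. Without the first, these medians were 0.21 and 0.25, with Fis1 at 0.81 (unadjusted p = 0.00217, limma adjusted p = 0.32) and 0.80 (unadjusted p = 0.0023, limma adjusted p = 0.28). The lone array left in the group is assumed there to vary like the other groups.

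**Figure D3:**
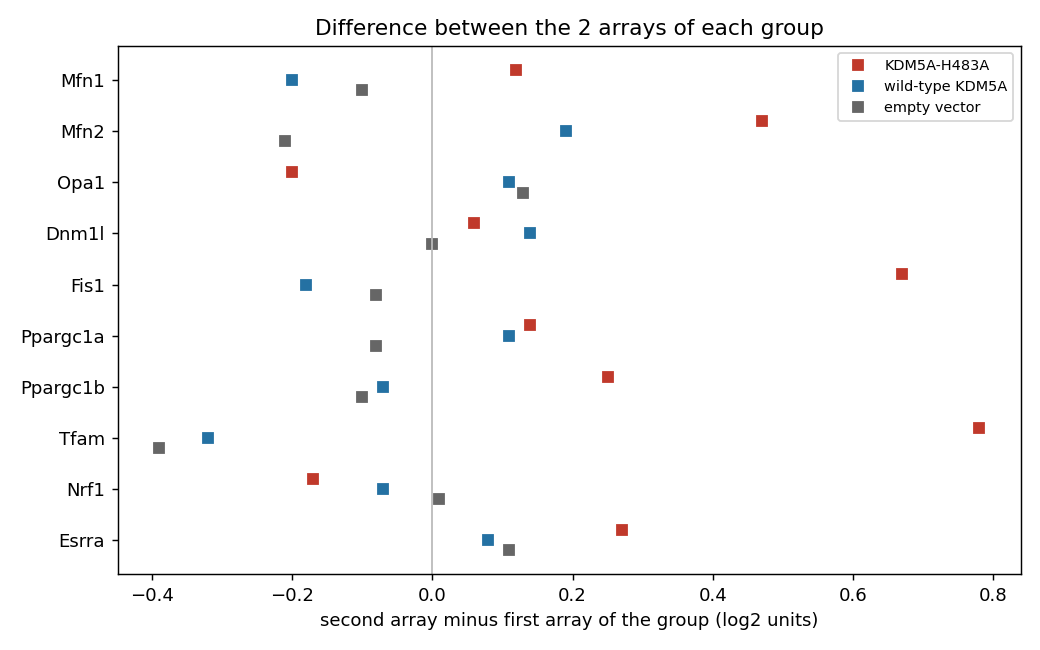
Second minus first array of each group in log2 units (horizontal axis) for the brightest probe set of each gene, with a square for each group. With KDM5A-H483A the difference reaches 0.78 for Tfam and 0.67 for Fis1, while all differences of the wild-type KDM5A and empty vector arrays lie between -0.39 and 0.19.

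Clone, RIKEN and predicted-gene symbols were passed over in ranking profiles, so a closer profile among them would not be named. The remaining genes most like Mfn2 over the 6 arrays were Mocs2 (Pearson r 0.997), Imp3 (0.992), Snd1 (0.991), Marchf8 (0.99) and Anapc11 (0.989). The candidates, those symbols included, were 4273 genes with a level above the median gene and at least the spread of Mfn2. Mocs2, which encodes molybdopterin synthase subunits, stood at 8.14 and 8.65 in KDM5A-H483A cells, 8.14 and 8.33 in wild-type KDM5A cells, and 8.26 and 8.0 in empty vector cells. Of those candidates, 2.64% reached an r of 0.95. The profile of Tfam was followed most closely by Rex1bd (0.999), Sec11a (0.998), Clic1 (0.993), Rpa2 (0.991) and Mrps35 (0.987), among 1146 candidates, 4.28% of which reached that r. These coefficients describe 6 arrays that share their normalization, and the second KDM5A-H483A array is the highest in each of the 2 profiles.

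Genes that act beside these 10 were taken from 5 lists of textbook knowledge holding 122 genes, 118 of which were measured. Limma called 0 of the 118 in any comparison, with a smallest limma adjusted p of 0.927. Unadjusted p-values under 0.05 were found for 1 gene between KDM5A-H483A and empty vector (Chchd6), for 2 between wild-type KDM5A and empty vector (Opa3 and Prkaa2), and for 5 between KDM5A-H483A and wild-type KDM5A (Pld6, Opa3, Fundc1, Immt and Mef2d). These are counts of 118 genes, beside shares of 2.01%, 3.02% and 4.31% among all probe sets. Pld6, a mitochondrial phospholipase gene (log2 fold change -0.38), is named for its p alone, after its values were seen. Over the 40 differences of the list genes chosen by rule, 32 moved by over 1.5 times when 1 of the 4 arrays compared was left out. None could change sign, since the rule took only genes whose arrays did not overlap.

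The list of membrane dynamics held 26 measured genes, whose log2 fold changes against empty vector had medians of 0.06 for KDM5A-H483A and 0.07 for wild-type KDM5A. Both arrays were higher than both empty vector arrays in 4 of them for KDM5A-H483A and 6 for wild-type KDM5A, and lower in 3 and 2. Among all genes, both arrays were higher in 13.6% for KDM5A-H483A and 16.5% for wild-type KDM5A, and lower in 14.6% and 15.4%, and the counts of the other lists can be read against the same shares. Miga1, whose product is mitoguardin 1, a fusion factor, stood at 4.28 and 5.02 in KDM5A-H483A cells, 4.82 and 5.64 in wild-type KDM5A cells, and 4.55 and 4.82 in empty vector cells. The lower wild-type KDM5A array exceeded the higher empty vector array only beyond the printed decimals (log2 fold change 0.54, 95% CI -0.25 to 1.34, limma adjusted p = 1), and without the second wild-type KDM5A array the difference was 0.14. Fundc1, a mitophagy receptor, stood at 9.62 and 9.12 in KDM5A-H483A cells, 9.93 and 9.86 in wild-type KDM5A cells, and 9.33 and 9.76 in empty vector cells, so both wild-type KDM5A arrays were the highest. For Fundc1 the difference of KDM5A-H483A from wild-type KDM5A was -0.52, and -0.27 without the second KDM5A-H483A array. Opa3, a gene of a mitochondrial protein linked to optic atrophy, was low in both wild-type KDM5A arrays at 6.73 and 6.56, against 6.89 and 7.07 with empty vector (log2 fold change -0.33, 95% CI -0.65 to -0.01, unadjusted p = 0.0433, limma adjusted p = 1). Letm1, an inner membrane cation exchanger, and Rhot1, the gene of the transport GTPase MIRO1, differed by 0.59 and 0.46 between KDM5A-H483A and wild-type KDM5A, and by 0.16 and 0.24 without the second KDM5A-H483A array. Pink1, the mitophagy kinase, Inf2, an actin-nucleating formin, and Usp30, a deubiquitinase, had log2 fold changes of 0.37, 0.35 and 0.32 between KDM5A-H483A and empty vector, and of 0.14, 0.12 and 0.17 without the second KDM5A-H483A array.

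Among the 20 genes of OPA1 processing and cristae, the median was 0.17 for KDM5A-H483A and -0.01 for wild-type KDM5A against empty vector, with 2 and 4 genes higher on both arrays and 1 and 3 lower. Immt, the gene of the MICOS subunit mitofilin, stood at 7.18 and 7.61 in KDM5A-H483A cells, 6.64 and 6.92 in wild-type KDM5A cells, and 7.34 and 7.09 in empty vector cells. Both wild-type KDM5A arrays were the lowest of the 6. The log2 fold change between KDM5A-H483A and wild-type KDM5A was 0.61 (95% CI 0.16 to 1.07, unadjusted p = 0.016, limma adjusted p = 0.927), and 0.39 without the second KDM5A-H483A array. Yme1l1, the inner membrane protease that cleaves OPA1, stood at 9.24 and 8.62 in KDM5A-H483A cells, 9.25 and 9.48 in wild-type KDM5A cells, and 9.35 and 9.41 in empty vector cells, the second KDM5A-H483A array being the low one. Its log2 fold change between KDM5A-H483A and empty vector was -0.45, and -0.14 without that array. Parl, a rhomboid protease, Samm50, which assembles outer membrane proteins, and Oma1, the stress protease of OPA1, had second KDM5A-H483A arrays of 7.58, 9.04 and 7.04, against first arrays of 6.37, 8.18 and 6.79. Chchd6, another MICOS subunit, and Micos13 differed by 0.30 and 0.24 between KDM5A-H483A and empty vector. Afg3l2, a matrix-facing protease subunit, had -0.27 between wild-type KDM5A and empty vector.

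The 20 genes of mitochondrial DNA replication and transcription had medians of 0.04 for KDM5A-H483A and -0.01 for wild-type KDM5A against empty vector, with 4 and 2 genes higher on both arrays and 3 and 4 lower. Tefm, the transcription elongation factor, stood at 5.62 and 5.96 in KDM5A-H483A cells, 5.53 and 5.34 in wild-type KDM5A cells, and 5.63 and 5.69 in empty vector cells, and so was lowest in both wild-type KDM5A arrays. The Tefm difference of KDM5A-H483A from wild-type KDM5A was 0.35, and 0.18 without the second KDM5A-H483A array. Tfb2m, the initiation factor, and Ssbp1, the single-strand binding protein, differed by -0.17 and -0.16 between wild-type KDM5A and empty vector. Polg2, the accessory subunit of the mitochondrial DNA polymerase, and the MTERF family genes Mterf3 and Mterf4 differed by 0.24, -0.22 and 0.17 between KDM5A-H483A and empty vector, and by 0.13, -0.08 and 0.17 without the second KDM5A-H483A array. The DNA ligase gene Lig3 differed by -0.22 between KDM5A-H483A and wild-type KDM5A.

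The 27 nuclear partners of PGC-1, NRF1 and ERRα had medians of 0.00 for KDM5A-H483A and 0.03 for wild-type KDM5A against empty vector, with 2 and 3 genes higher on both arrays and 2 and 1 lower. Prkaa2, a catalytic subunit of the energy sensor AMPK, stood at 6.21 and 6.13 in KDM5A-H483A cells, 6.11 and 6.84 in wild-type KDM5A cells, and 5.94 and 5.89 in empty vector cells. All 4 arrays with either KDM5A form lay above both empty vector arrays (log2 fold change 0.56 for wild-type KDM5A, 95% CI 0.01 to 1.12, unadjusted p = 0.0475, limma adjusted p = 1). Mff, Inf2, Usp30 and Twnk of the other lists had that pattern too, and its share of all genes was not counted. Without the second wild-type KDM5A array the Prkaa2 difference was 0.20. Gabpa, the DNA-binding subunit of GABP, Mef2d, a transcription factor, and Sirt1, a deacetylase of PGC-1α, had log2 fold changes of -0.41, -0.36 and -0.36 between KDM5A-H483A and wild-type KDM5A. Without the second KDM5A-H483A array these were -0.15, -0.49 and -0.47, and without the second wild-type KDM5A array Sirt1 was at -0.15. Hcfc1, a transcriptional cofactor, and Sirt3, a mitochondrial deacetylase, both differed by -0.18 between KDM5A-H483A and empty vector, and Nfe2l2, the antioxidant regulator NRF2, by 0.19 between wild-type KDM5A and empty vector.

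Mitochondrial content markers and targets of NRF1 or ERRα, 25 genes, had medians of 0.12 for KDM5A-H483A and -0.04 for wild-type KDM5A against empty vector, with 1 and 3 genes higher on both arrays and 0 and 2 lower. Vdac1, the outer membrane channel, stood at 9.06 and 9.51 in KDM5A-H483A cells, 9.21 and 9.82 in wild-type KDM5A cells, and 8.91 and 9.19 in empty vector cells, with both wild-type KDM5A arrays above both empty vector arrays (log2 fold change 0.46, 95% CI -0.13 to 1.06, limma adjusted p = 1), and a difference of 0.16 without the second wild-type KDM5A array. Uqcrc2, a complex III subunit, and Tomm22, an import receptor, differed by -0.28 and 0.24 in that comparison, and Sdha, a complex II subunit, by 0.09 between KDM5A-H483A and empty vector. In this list the second array exceeded the first in 23 of 25 genes in KDM5A-H483A cells, 22 with wild-type KDM5A and 13 in empty vector cells, with median differences of 0.55, 0.23 and 0.02. Among all genes the second array was the higher in 49.6% in KDM5A-H483A cells, 47.3% with wild-type KDM5A and 49.6% in empty vector cells. Over the 5 lists, the second KDM5A-H483A array held the highest value for 56 of 118 genes (47.5%) and the lowest for 18 (15.3%), against 23.1% of all genes for each. The count of highest values ranged between lists from 4 of 27 nuclear partners to 16 of 20 genes of OPA1 processing and cristae.

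**Figure D4:**
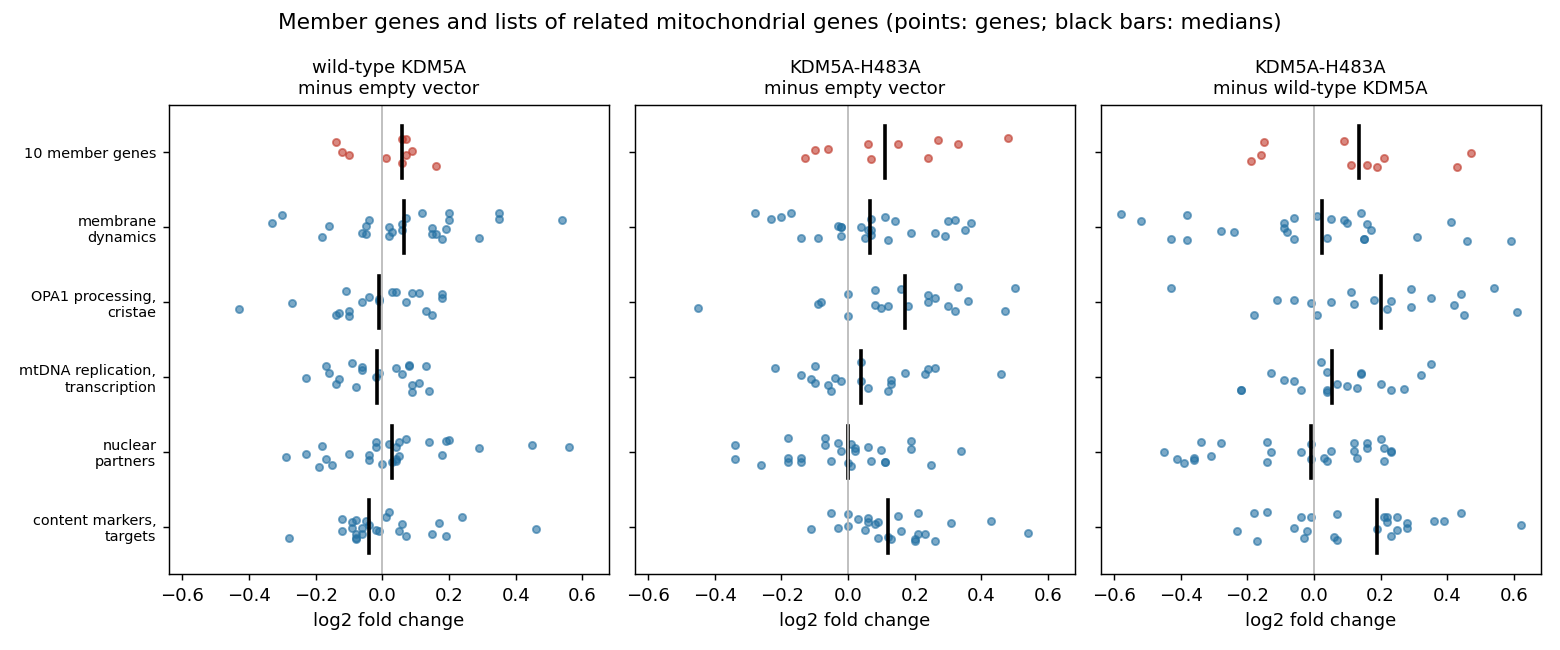
Log2 fold changes (horizontal axis) of the 10 member genes and of 5 lists of related genes, with a point for each gene and a black bar at the median, in a panel for each comparison. The list medians lie between -0.04 and 0.20.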

How the data were processed

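Log2 values of 6 arrays were deposited by the authors, who used RMA according to the submitters' processing notes. This method corrects for background, gives all arrays 1 distribution and combines the probes of a set, so a change in total RNA cannot be seen and weak signals are compressed. No version or annotation is stated there. The labels name a whole-transcript labelling kit for arrays whose probes lie near transcript 3′ ends, without saying how kit and array were combined, and its part in levels and in disagreements between probe sets was not tested. The values were used as deposited (array medians 4.55 to 4.60). An array value carries no molecule count, and 2 arrays per group limit the precision.

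After removing 64 control probe sets, 45037 were fitted with limma 3.58.1 under R 4.3.3 (lmFit and eBayes, group means as coefficients; 3 residual and 3.52 prior degrees of freedom). Two-sided p-values were adjusted over all probe sets by the Benjamini-Hochberg method at 0.05. The platform annotation gave 34945 probe sets 1 gene symbol, of which 34741 were matched to the reference table by Entrez ID, for 18193 genes. List genes without such a probe set were not analysed here. The fit was tested on simulated data. From each list and comparison, the 3 genes with the largest change among those whose arrays did not overlap were named. Profiles like those of Mfn2 and of the gene with the largest range were ranked by Pearson r, passing over clone, RIKEN and predicted-gene symbols. Members and lists were chosen with earlier results of these data known. Alternatives were a replicate block, each array left out, 1 probe set per gene, a filter on dim probe sets, another prior, fits of 2 groups, centring and averaging of probe sets. Leaving out arrays for the named list genes was added after seeing the data, as differences of means with no test. Ppargc1b was not included in the promoter search.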

Additional observations from a re-analysis of the deposited data

How the results depend on the processing

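In every alternative run, limma called 0 probe sets in each of the 3 comparisons, and no gene of the 10 passed, with a smallest limma adjusted p of 0.28 for these genes when an array was left out and 0.798 otherwise. Against empty vector, averaging a gene's probe sets turned the sign of the log2 fold change to 0.07 for Opa1 in KDM5A-H483A cells, and to 0.03 for Tfam and -0.05 for Nrf1 with wild-type KDM5A. Between KDM5A-H483A and wild-type KDM5A it gave -0.06 for Mfn2, 0.03 for Opa1, -0.03 for Ppargc1a and 0.03 for Nrf1. Leaving out single arrays gave ranges that cross 0 for KDM5A-H483A against empty vector in Tfam (-0.06 to 0.72), Ppargc1b (-0.06 to 0.19) and Nrf1 (-0.15 to 0.02), for KDM5A-H483A against wild-type KDM5A in Mfn2 (-0.07 to 0.40) and Esrra (-0.03 to 0.25), and for wild-type KDM5A against empty vector in Mfn2 (-0.03 to 0.18), Dnm1l (-0.01 to 0.13), Fis1 (-0.08 to 0.10) and Tfam (-0.29 to 0.10). The cause was not tested. No sign turned with the centring. The log2 fold changes are the same by construction with 1 probe set per gene, another prior, the filter or the fits of 2 groups. The filter removed the brightest probe set of Ppargc1a, so that run does not cover this gene.

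With the replicate number as a block, the log2 fold changes are the same by construction, the count of calls stayed 0 in each comparison and the smallest unadjusted p of the 10 genes was 0.0648, for Fis1 with KDM5A-H483A against empty vector. The numbers are not stated to mark a shared batch. Deviations of same-numbered arrays from their group means correlated at 0.489 between the KDM5A-H483A and wild-type KDM5A groups, 0.029 between KDM5A-H483A and empty vector, and 0.272 between wild-type KDM5A and empty vector.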
